A study of Mus musculus with 9 samples.

Results

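Chemokines are small secreted or membrane-bound proteins that steer leukocytes, and chemokine receptors are the G protein-coupled receptors through which leukocytes read them. The genes described here are all 63 rows of the deposited table, of 27179 in all, whose symbol starts with Ccl, Cxcl, Cx3cl, Xcl, Ccr, Cxcr, Cx3cr, Xcr or Ackr followed by a digit. They comprise 40 ligand genes, one of them a pseudogene (Ccl19-ps1), and 23 receptor genes, among which 4 encode atypical receptors (Ackr). Atypical receptors bind chemokines without the usual G protein signal and act mostly as scavengers. The table gives read counts divided by a size factor for each library, called normalized counts below.

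The libraries are poly(A) RNA-seq of liver (m-lobe) from C57BL/6J mice labelled wild type, with 4 mice in the sgRosa26 group (libraries A to D) and 5 in the sgCcnd1 group (libraries E to I). At 17 months of age every mouse received AAV8 (3e11 vector genomes) by retro-orbital injection, and the liver was taken 3 weeks later. The vector carried the small nuclease saCas9 driven by TBG, a hepatocyte promoter, and a U6-driven guide RNA. The guide was directed at Ccnd1, which encodes cyclin D1, or at Rosa26, a locus commonly cut as a neutral control, so both groups carried the nuclease. The series title names inflammatory signalling as the question. The nuclease is expressed in hepatocytes, whereas most chemokine receptors are made by leukocytes, and the RNA came from the whole tissue piece. In such bulk RNA, fewer cells of a type and less RNA per cell cannot be told apart.

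In liver, hepatocytes, Kupffer cells, sinusoidal endothelium and stellate cells all make chemokines. CCR2 with its ligand CCL2 brings monocytes in from blood, CXCR3 with CXCL9, CXCL10 and CXCL11 draws activated T and NK cells, CXCR6 with CXCL16 retains NKT and T cells in the sinusoids, and CXCR2 with CXCL1 and CXCL2 recruits neutrophils. Many inflammatory chemokine genes are switched on by interferon through STAT and IRF factors or by NF-kB, whereas CXCL12 is made constantly by stromal cells.

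Depth ranged from 10840595 to 20176201 gene-assigned reads per library and did not differ between the groups beyond the spread between mice (exact two-sided permutation p = 0.667). Ccnd1 itself was at 744 ± 110 normalized counts in sgRosa26 (SD, n = 4) and 362 ± 40.6 in sgCcnd1 (SD, n = 5), or -1.03 on the log2 scale (SE 0.11, limma adjusted p = 0.0116). It was the 1 gene of 12993 tested that passed the adjustment in limma, and it no longer passed without library B, D, F, H or I (adjusted p from 0.0558 to 0.0857). Library H had almost no Y-linked transcripts (Ddx3y at 2.00 normalized counts, 810 or more in the others). Library B was the highest of the 9 in 16 of the 29 members tested, and H was the lowest in 8.

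Promoters are shown for members that the results below turn on. Of the 9 members with an unadjusted p under 0.05, 5 matched the RefSeq promoter table of GRCm38.p6 (Cxcl9, Cxcl10, Ccl6, Ccr2 and Cxcr6), and Cxcl16, Ccl2 and Ccl5 did not. The 250 bases before the annotated start are printed for the CXCR3 ligands Cxcl10 (chr5:92348890-92349139, minus strand) and Cxcl9 (chr5:92328080-92328329, minus strand), which are neighbours and in both of which control B was the highest library and H the lowest. Those of Ccl6 (chr11:83593088-83593337, minus strand) are printed because it was the member with the smallest p. Capitals mark matches to an interferon-stimulated response element or an NF-kB site.
Cxcl10: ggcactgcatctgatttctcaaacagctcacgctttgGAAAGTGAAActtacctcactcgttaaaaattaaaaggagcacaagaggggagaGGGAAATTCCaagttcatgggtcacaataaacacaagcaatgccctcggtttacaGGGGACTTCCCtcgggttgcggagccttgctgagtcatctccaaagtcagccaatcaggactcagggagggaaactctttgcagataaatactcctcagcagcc
Cxcl9: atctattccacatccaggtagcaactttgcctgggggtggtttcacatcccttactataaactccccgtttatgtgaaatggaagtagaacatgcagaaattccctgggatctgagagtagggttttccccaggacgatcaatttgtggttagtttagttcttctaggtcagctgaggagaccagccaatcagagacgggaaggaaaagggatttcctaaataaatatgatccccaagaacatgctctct
Ccl6: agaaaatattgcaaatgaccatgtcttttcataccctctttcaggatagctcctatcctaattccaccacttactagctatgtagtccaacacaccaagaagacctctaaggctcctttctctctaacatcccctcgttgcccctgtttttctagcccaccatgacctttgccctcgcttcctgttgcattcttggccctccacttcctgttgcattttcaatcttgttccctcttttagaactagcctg
Searched on both strands in the window from 250 bases before to 50 bases after the start, Cxcl10 had 1 match to GAAANNGAAA (interferon-stimulated response element), beginning 213 bases before the start. It also had 3 matches to the NF-kB site, beginning 159, 104 and 103 bases before the start, the last 2 of which overlap each other. The pattern used for the NF-kB site was GGGRNNYYCC, where N is any base, R is A or G and Y is C or T. Cxcl9, Ccl6, Ccr2 and Cxcr6 had 0 matches to either, and all 5 had 0 matches to TTCNNNGAA (gamma-activated site). Over 32851 promoter windows of the same length, 3.44% held the response element, 8.46% the NF-kB site and 8.30% the gamma-activated site. These are exact matches of letters in 1 window, so sites that depart from a pattern by 1 letter were not counted.

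Of the 63 genes, 57 had reads in at least 1 library. The 6 at 0 in all 9 libraries were Ccl17, Ccl26, Cxcl3, Cxcl15, Ccl21b and the pseudogene Ccl19-ps1, where 0 of 142805279 reads allows a share of up to 2.1e-06% (3 counts, counting error only). This limit concerns counted reads only. Ccl21b and Ccl19-ps1 have copies among the members, and reads shared between copies were not examined. All 23 receptor genes and 34 of 40 ligand genes were above 0. The receptor gene with the fewest had 1 read over all 9 libraries, so being above 0 can rest on 1 read. Over the whole table, 7657 of 27179 genes were at 0 in all libraries. With a minimum mean of 10 normalized counts, 29 members entered the test, 16 ligands and 13 receptors. The other 28 had means from 0.0847 to 9.26. Cxcr6, Cxcr3 and Ccr7 passed this minimum through the control group only, with sgCcnd1 means of 9.03, 9.32 and 6.87. Just below it were Ccr1 (mean 9.26) and Ccl4 (8.07), and just above it Ccr7 (10.4) and Ccl24 (11.2).

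Per kilobase of exon, the median level was 34.4 normalized reads over the 16 ligands tested and 6.53 over the 13 receptors. Over all 40 ligands and all 23 receptors, low members included, these medians were 5.83 and 3.43. Cxcl12, the CXCR4 ligand that holds leukocytes and progenitors in tissue niches, led with 760 normalized reads per kilobase. It alone gave 70.5% of all ligand counts in the controls, and Ccl9, a CCR1 ligand of myeloid cells, gave 11.8%. Next on the per-kilobase scale were Ccl9 (357), Cxcl9 (129) and Cxcl1 (116). The libraries of Cxcl9 and Cxcl1 overlapped, and so did those of most neighbours further down the order. The highest receptor was Cxcr4 at 17.4 per kilobase and the lowest tested was Xcr1, the receptor of cross-presenting dendritic cells, at 3.15. Exon lengths were unions over all annotated transcripts, so these levels depend on that annotation.

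**Figure D1:**
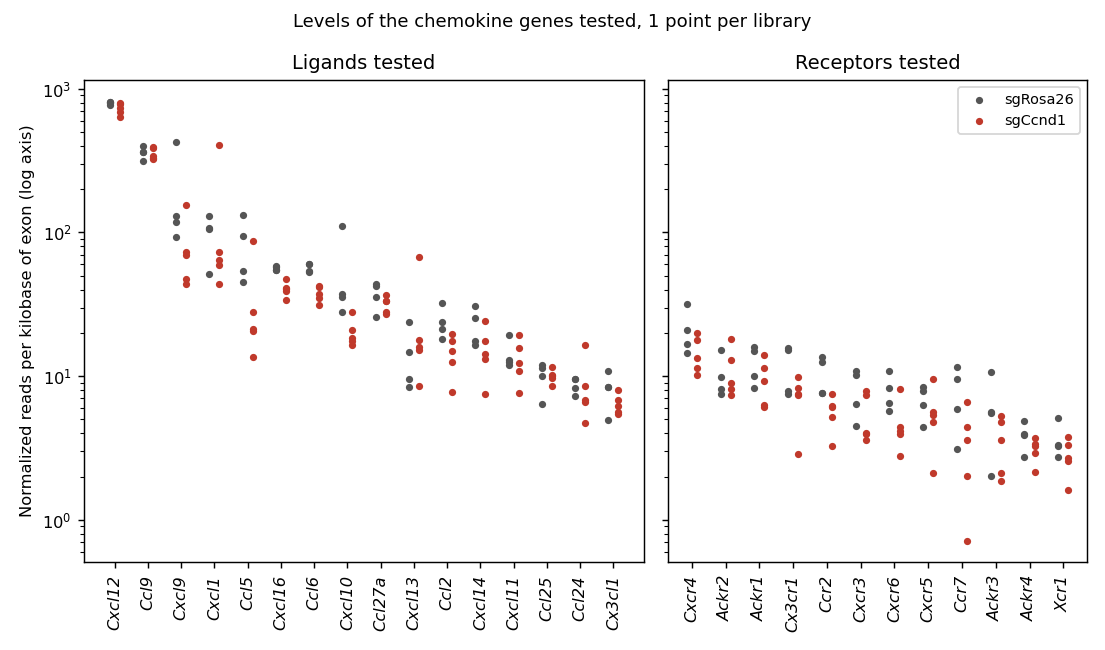
Normalized reads per kilobase of exon (log axis) for 16 ligands and 12 receptors tested, 1 point per library, sgRosa26 in grey and sgCcnd1 in red, ordered by the mean. Ligands run from Cxcl12 at 760 down to Cx3cl1 at 7.19, and receptors from Cxcr4 at 17.4 down to Xcr1 at 3.15.

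Between the groups, most chemokine and receptor transcripts had lower means after targeting of Ccnd1, but 0 of the 29 tested passed in limma when p-values were adjusted over all 12993 genes, in either direction. Over all genes the share called by that rule was 0.0077% lower and 0% higher. At an unadjusted p under 0.05, 9 members were lower (31.0% of those tested, where 5.74% of all genes were lower by this rule) and 0 were higher (5.22% of all genes). Without Cxcr6, Cxcr3 and Ccr7, which entered the test through the controls only and so had to be lower, 8 of 26 were lower (30.8%, where 5.5% of the 12783 genes whose mean reached 10 in both groups were). The 9 included the ligands Ccl6, Cxcl16, Cxcl10, Ccl5, Cxcl9 and Ccl2 and the receptors Ccr2 and Cxcr6. Both groups of libraries were fully separated in 3 of 29 members, Ccl6, Cxcl16 and Ccr2, all lower (10.3%, against 1.97% of all genes lower and 1.92% higher). DESeq2 on the recovered reads called 3 members lower, Ccl6, Cxcl16 and Cxcl10 (0.585% of all genes), and 0 higher (0.316%), with its adjusted p undefined for 9 of the 29. Without library H it called 0 members. The edgeR model called 0 members (0.0077% of all genes lower, 0% higher) and put 10 lower at an unadjusted p under 0.05 (6.15% of all genes lower, 4.42% higher).

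The fitted log2 fold change was below 0 in 26 of 29 members, where 47.1% of all genes tested were below 0. Its median was -0.49 over the members and 0.014 over all genes. Without the 3 members that entered through the controls only, it was below 0 in 23 of 26 members with a median of -0.38, and over the genes whose mean reached 10 in both groups the median was 0.015. Among ligands, 14 of 16 were below 0, the median was -0.25, and 6 were lower at an unadjusted p under 0.05. Among receptors, 12 of 13 were below 0, the median was -0.51, and 3 were lower at an unadjusted p under 0.05. Of the 10 receptors with a mean of at least 10 in both groups, 9 were below 0, the median was -0.44, and 2 were lower by that rule. Whether the 2 classes differ was not tested. Summed over the 16 ligands tested, normalized counts were 8566 to 10303 in sgRosa26 and 7305 to 8874 in sgCcnd1. Over the 13 receptors tested they were 314 to 524 and 207 to 355, so both sums overlapped between the groups. Without library B, the count of members at an unadjusted p under 0.05 was 5 instead of 9. Those 5, Ccl5, Ccl6, Ccr2, Cxcl10 and Cxcl16, were under 0.05 in all 9 limma fits that each left out a library, but Ccl5 was not under 0.05 in edgeR or DESeq2 without library H.

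**Figure D2:**
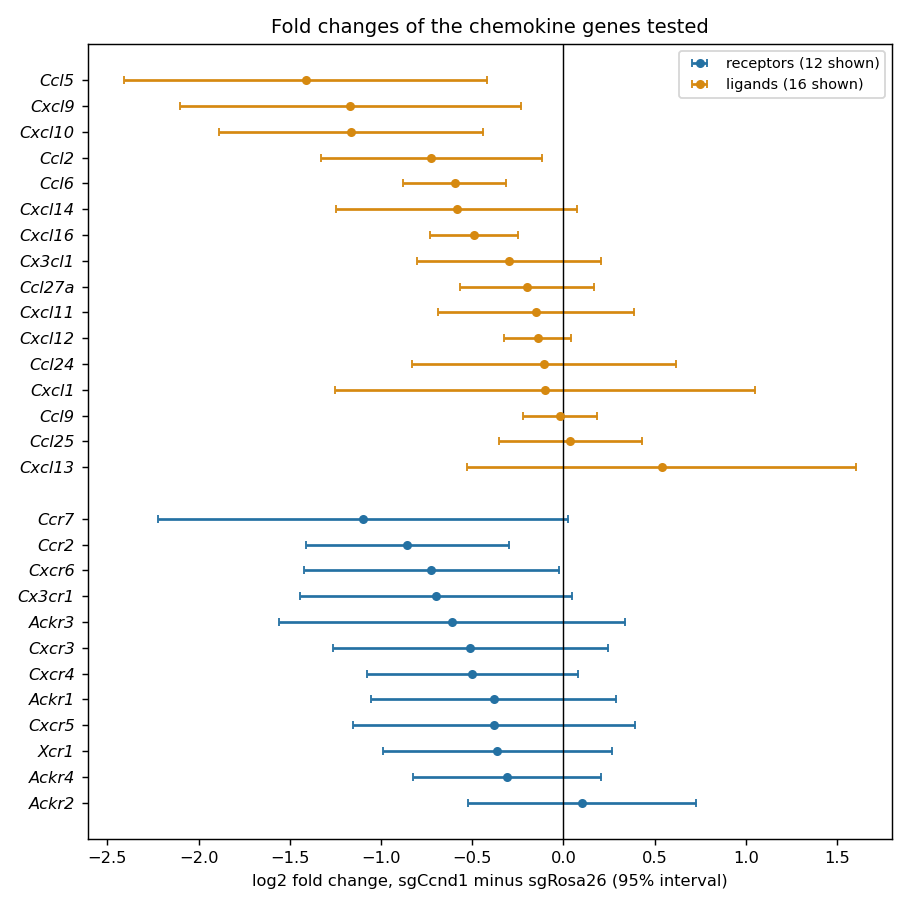
Fitted log2 fold change (sgCcnd1 minus sgRosa26, on the scale of log2 of the normalized count plus 1) with its 95% interval for 16 ligands (orange) and 12 receptors (blue) tested with limma. The points run from -1.41 for Ccl5 to 0.54 for Cxcl13, and all but Ccl25, Cxcl13 and Ackr2 lie left of 0.

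Markers of leukocytes and other liver cells were read in the same fit, in which 5.74% of all genes were lower at an unadjusted p under 0.05. The 5 pan-leukocyte markers (Ptprc, Laptm5, Cd53, Tyrobp, Fcer1g) were all lower at an unadjusted p under 0.05, with a median log2 fold change of -0.43, and their sum was 892 to 1118 normalized counts in sgRosa26 and 661 to 859 in sgCcnd1, without overlap. Among T and NK cell markers, 5 of 6 tested were lower by the same rule (median -1.07), or 4 of 5 without Cd3g, which entered through the controls only, and the summed counts overlapped (99.6 to 268 in sgRosa26, 55.0 to 183 in sgCcnd1). Library B had the highest and library H the lowest T and NK sum, and E had the highest of its group. Monocyte markers had a median of -0.38, or -0.36 without Ms4a4c, which entered through the controls only (1 of 6 lower at an unadjusted p under 0.05, sums of 1564 to 1736 and 1225 to 1455, without overlap). The 1 lower was Lyz2 (991 ± 69.9 and 733 ± 60.7, SD, n = 4 and 5). It gave most of these sums and was the only monocyte marker tested whose groups did not overlap. Medians were -0.34 for dendritic cell (1 of 4 lower), -0.59 for neutrophil (1 of 3) and -0.41 for B and plasma cell markers (0 of 5). Kupffer cell markers had a median of 0.0014 (0 of 8 lower, sums of 4760 to 6948 and 5273 to 7173), endothelial markers -0.023 (0 of 6), stellate markers -0.20 (0 of 6), cholangiocyte markers -0.10 (1 of 4) and hepatocyte markers -0.0052 (0 of 6). None of these lists had a marker that was at 0 in all libraries, and 0 markers passed the adjustment in limma, while DESeq2 called the pan-leukocyte marker Laptm5 (adjusted p = 0.0221) and the monocyte marker Lyz2 (adjusted p = 0.00203) lower. The DESeq2 adjusted p was undefined for 3 of the 6 T and NK cell markers. It was also undefined for 1 marker each of the monocyte, dendritic cell, neutrophil, B and plasma cell and cholangiocyte lists. The part of leukocyte content in the results on chemokines was not tested.

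**Figure D3:**
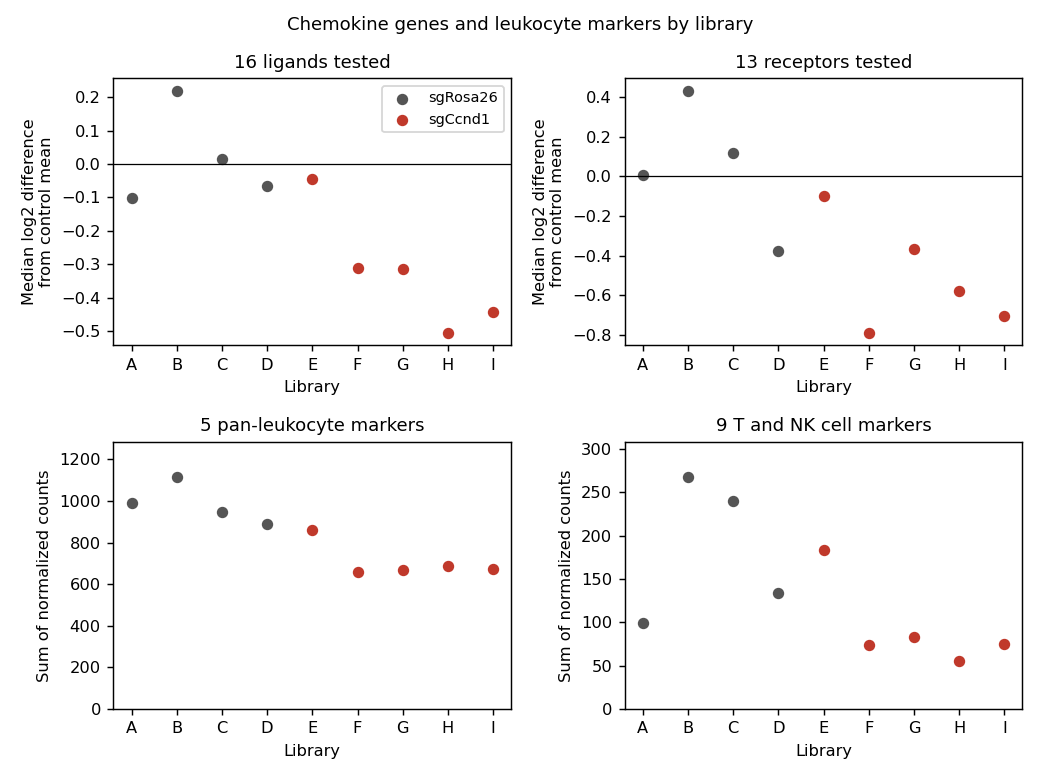
Upper panels show, for each library, the median log2 difference from the control mean over the 16 ligands and the 13 receptors tested. Lower panels show the summed normalized counts of 5 pan-leukocyte and 9 T and NK cell markers. Library B is the highest in all 4 panels, and E is the highest sgCcnd1 library in all 4.

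The CXCR3 ligands, induced by interferon-gamma and chemotactic for T and NK cells, came to 3 genes, all of them tested. Cxcl9 (Entrez 17329) was at 359, 1285, 390 and 281 normalized counts in A to D and at 467, 211, 144, 132 and 220.0 in E to I. Library B stood far above the rest and E lay among the controls, so the groups overlapped while 4 of 5 sgCcnd1 libraries were below the lowest control. Its log2 fold change was -1.17 (SE 0.43, limma adjusted p = 0.358), and -0.69 without library B, where its unadjusted p was not under 0.05. The unadjusted p of Cxcl9 was also not under 0.05 with robust eBayes, or in DESeq2 without library H. Cxcl10 (Entrez 15945) was at 83.6, 250.7, 62.9 and 80.6 in the controls and at 63.3, 41.2, 47.0, 37.0 and 39.7 in sgCcnd1. Here too B was highest, and E (63.3) overlapped only with control C (62.9). The change was -1.16 (SE 0.33, limma adjusted p = 0.272, DESeq2 adjusted p = 0.0249), and -0.73 without B. The exons of Cxcl10 overlap those of Art3 on the opposite strand, which had 13.7 to 40.4 normalized counts. Cxcl11, in which C57BL/6 mice are known to carry a frameshift, was at 53.9 ± 12.7 and 49.9 ± 16.9 normalized counts (SD, n = 4 and 5) and did not differ detectably (-0.15, 95% interval -0.69 to 0.39).

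Cxcr3, the receptor of these ligands, was at 13.8 ± 5.24 normalized counts in sgRosa26 (SD, n = 4) and 9.32 ± 3.61 in sgCcnd1 (SD, n = 5). Its fitted difference of -0.51 had a 95% interval from -1.27 to 0.24, and the groups overlapped. With quantile normalization it was -0.32.

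Among ligands of CCR1 and related receptors, the myeloid chemokine Ccl6 (Entrez 20305, chr11:83587886-83593087) was at 94.7, 108, 109 and 96.1 normalized counts in A to D and at 62.5, 75.2, 76.4, 56.0 and 66.7 in E to I. Every sgCcnd1 library lay below every control. The mean went from 102 ± 7.50 (SD, n = 4) to 67.4 ± 8.60 (SD, n = 5), 66.1% of the control level, with a log2 fold change of -0.60 (SE 0.13, limma adjusted p = 0.227, DESeq2 adjusted p = 0.0306). Ccl9, its neighbour on chromosome 11, was at 1095 ± 105 and 1080 ± 99.6 (SD, n = 4 and 5). Its log2 fold change was -0.019, with a 95% interval from -0.22 to 0.18. Ccl5, or RANTES, a product of T and NK cells, was at 51.6, 126.2, 90.1 and 43.7 in the controls and at 83.1, 26.9, 20.6, 13 and 19.9 in sgCcnd1. Library E lay within the control range and the other 4 below it. Its fitted value of -1.41 (SE 0.46, limma adjusted p = 0.320) was the lowest among the 29, while DESeq2 gave an adjusted p of 0.451.

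Ccr1, Ccl3 and Ccl4 were below the minimum for testing, with means of 12.4 and 6.76, 9.67 and 3.52, and 11.8 and 5.08 normalized counts in sgRosa26 and sgCcnd1.

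The monocyte axis included Ccr2 (Entrez 12772, chr9:124101918-124109140), the receptor that lets inflammatory monocytes leave the bone marrow. It was at 92.2, 85.0, 51.6 and 51.5 normalized counts in A to D and at 51.1, 34.9, 42.1, 22 and 41.2 in E to I. The groups did not overlap, but only narrowly: the lowest control was at 51.5 and the highest sgCcnd1 library at 51.1. Its log2 fold change was -0.86 (SE 0.26, limma adjusted p = 0.292, DESeq2 adjusted p = 0.0887). Its ligand Ccl2 was at 27.1, 36.8, 20.6 and 24.3 in the controls and at 19.8, 22.4, 8.81, 17.0 and 14.2 in sgCcnd1. Library F lay within the control range and the other 4 below it, with a log2 fold change of -0.72 (SE 0.28, limma adjusted p = 0.375), and its unadjusted p was not under 0.05 without library B or G. The CCR2 ligands Ccl7, Ccl8 and Ccl12 had means under 10 normalized counts.

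Cx3cr1, the fractalkine receptor of patrolling monocytes, was at 52.4 ± 20.3 in sgRosa26 (SD, n = 4) and 32.3 ± 11.6 in sgCcnd1 (SD, n = 5). As in Ccr2, controls A (68.9) and B (71.0) were above C (35.7) and D (34), and the groups overlapped. The fitted difference was -0.70 (95% interval -1.44 to 0.05; limma adjusted p = 0.484), and -0.41 without H. It had an unadjusted p under 0.05 in DESeq2 and in limma without library C, D or E (-0.87 to -0.83). Its ligand Cx3cl1, which is anchored in the membrane, was at 32.1 ± 9.66 and 25.2 ± 4.05 (SD, n = 4 and 5; difference -0.30, 95% interval -0.80 to 0.20). This difference was -0.15 without library B, and -0.51 with an unadjusted p under 0.05 without D.

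The other membrane-anchored ligand, Cxcl16 (Entrez 66102, chr11:70454389-70459984), is also a scavenger receptor for oxidised lipid. It was at 177, 174, 166 and 165 normalized counts in A to D and at 143, 117, 122, 125 and 102 in E to I. Controls were tightly grouped and all 5 sgCcnd1 libraries lay below them. The mean went from 171 ± 5.96 (SD, n = 4) to 122 ± 14.5 (SD, n = 5), 71.4% of the control level, with a log2 fold change of -0.49 (SE 0.11, limma adjusted p = 0.233, DESeq2 adjusted p = 0.0380). Zmynd15, whose exons overlap Cxcl16 on the opposite strand, had 95.1 to 151 normalized counts, and the use of strand in counting is not given in the sources used here. Cxcr6, the receptor of CXCL16, was at 11.1, 21.0, 16 and 12.6 in the controls and at 7.62, 5.37, 15.7, 8 and 8.52 in sgCcnd1. Library G lay among the controls and the rest below them, with a log2 fold change of -0.73 (SE 0.32, limma adjusted p = 0.441). Of the fits that left out a library, only those without A or G kept its unadjusted p under 0.05.

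**Figure D4:**
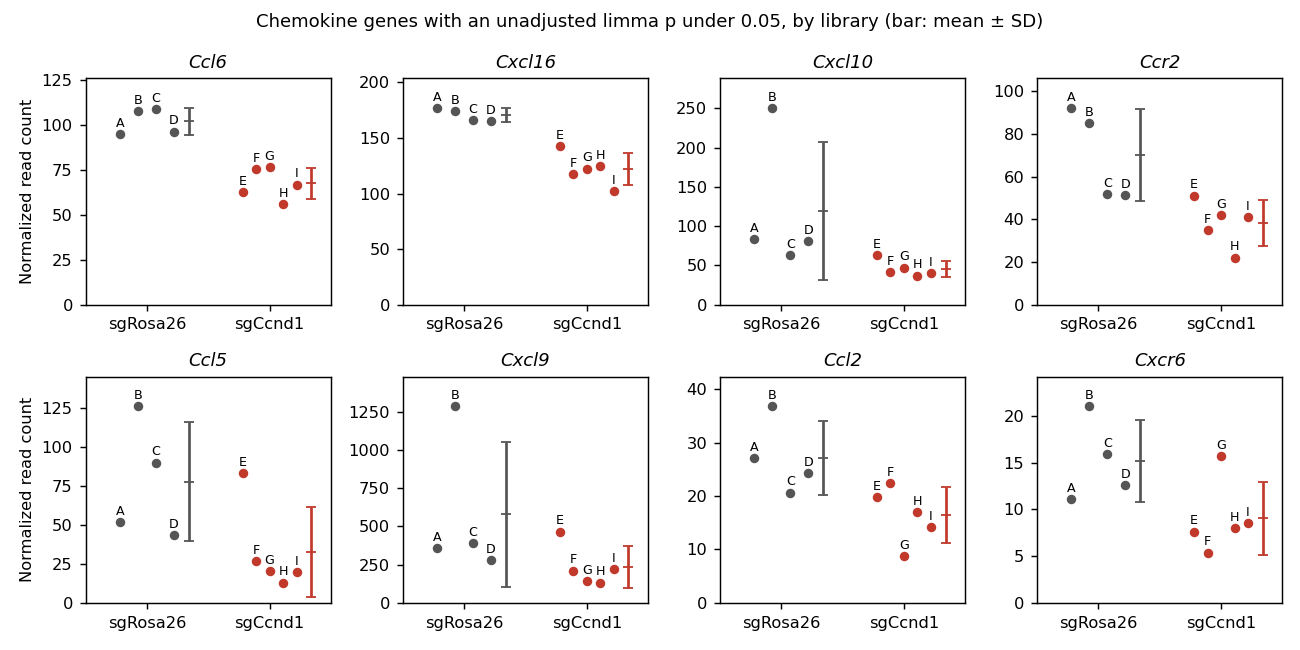
Normalized counts of 8 members with an unadjusted limma p under 0.05, 1 point per library with its letter, and the mean ± SD of each group (n = 4 and 5). In Ccl6, Cxcl16 and Ccr2 every sgCcnd1 point lies below every control, and in the CXCR3 ligands control B stands apart (1285 for Cxcl9, 250.7 for Cxcl10).

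Cxcl1 did not follow this pattern. This gene encodes the CXCR2 ligand that hepatocytes and other cells make in acute-phase responses. It was at 202, 96.4, 197 and 243 normalized counts in the controls and at 81.6, 111, 766, 120 and 136 in sgCcnd1. Library G was the highest of all 9, and the other 4 of its group lay between 81.6 and 136. The fitted difference was -0.10, with a 95% interval from -1.25 to 1.05. Without G it was -0.66 (unadjusted p under 0.05, limma adjusted p = 0.482), and edgeR and DESeq2 on all 9 libraries gave values above 0 (0.39 in both). Cxcl2 and Cxcl5 had means of 5.13 and 2.66 normalized counts, and the receptor Cxcr2 had 6.84 in sgRosa26 and 2.78 in sgCcnd1.

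Homeostatic ligands position cells in resting tissue, and the 5 tested had a median fitted difference of -0.14. Cxcl12 was at 6353, 6648, 6634 and 6534 normalized counts in A to D and at 6456, 5216, 6411, 5652 and 6008 in E to I. Controls lay close together, and E and G were within their range while F, H and I were below. The log2 fold change was -0.14 (SE 0.085, limma adjusted p = 0.559; 95% interval -0.33 to 0.04), 90.9% of the control mean. With quantile normalization it was -0.24, with an unadjusted p under 0.05. Ccl25, the ligand of the gut-homing receptor CCR9, was at 74.3 ± 18.5 and 74.5 ± 8.17 (SD, n = 4 and 5; difference 0.037, 95% interval -0.35 to 0.43). Ccl27a was at 87.9 ± 19.5 and 75.3 ± 9.66 (difference -0.20, 95% interval -0.57 to 0.17), with differences of -0.12 without library C, -0.11 without D, and -0.36 with an unadjusted p under 0.05 without A. Their exons overlap those of Elavl1 and Il11ra1 on the opposite strand, both with more counts in each library, and Ccl27b, a near-identical copy of Ccl27a, had reads in 1 control only.

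Cxcl14 was at 41.2 ± 12.4 and 28.1 ± 11.2 normalized counts (SD, n = 4 and 5; difference -0.59, 95% interval -1.25 to 0.07). It was -0.36 without library G, and -0.77 with an unadjusted p under 0.05 without E. Cxcl13, which draws B cells into follicles, had the highest fitted difference of the 29 tested (0.54, 95% interval -0.53 to 1.603; limma adjusted p = 0.706), and 0.095 without library H. Its counts were 11.1, 9.64, 16.9 and 27.2 in the controls and 17.5, 9.85, 20.6, 78.0 and 18.5 in sgCcnd1, so library H stood above the other 8. The receptor of CXCL13, Cxcr5, was also highest in H (32.0), with group means of 22.6 ± 6.01 and 18.3 ± 8.92 (difference -0.38, 95% interval -1.16 to 0.39), and the difference was -0.61 without H and -0.10 without I. Bcl9l, which overlaps Cxcr5 on the opposite strand, had 414 to 749 counts. The eotaxin Ccl24 was at 11.2 ± 1.40 and 11.2 ± 6.02 (difference -0.11, 95% interval -0.83 to 0.62).

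Cxcr4, the receptor of CXCL12 on most leukocytes, was at 38.1, 57.9, 30.0 and 26.2 normalized counts in the controls and at 35.8, 20.6, 32.3, 24.0 and 18.5 in sgCcnd1. The groups overlapped between 26.2 and 35.8 (difference -0.50, 95% interval -1.08 to 0.08; limma adjusted p = 0.514). It was -0.28 without library B, and had an unadjusted p under 0.05 without D (-0.65) or E (-0.62). Ccr7, which guides dendritic cells and naive T cells to lymph nodes, was at 14.8 ± 7.40 and 6.87 ± 4.44 (difference -1.10, 95% interval -2.22 to 0.03), close to the minimum for testing. It had an unadjusted p under 0.05 in edgeR, in DESeq2 and in limma without library A, E or G, and was -0.73 without I. Xcr1 was at 16.1 ± 4.62 and 12.4 ± 3.64 (difference -0.36, 95% interval -0.99 to 0.27), a difference that was -0.19 without library B and -0.20 without F.

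None of the 4 atypical receptors was past an unadjusted p of 0.05 in limma on all 9 libraries. Ackr2, which clears inflammatory CC chemokines, was the 1 receptor of the 13 tested with a fitted value above 0 (31.8 ± 11.1 and 34.8 ± 14.0 normalized counts, SD, n = 4 and 5; difference 0.10, 95% interval -0.52 to 0.72), and the sign turned without library D (-0.025) or G (-0.091). Ackr3, the second receptor of CXCL12, was at 19.99 ± 12.0 and 11.8 ± 5.11 (difference -0.61, 95% interval -1.56 to 0.34). Without library B its difference was -0.27, and without D it was -1.02, with an unadjusted p under 0.05. Ackr1, the Duffy antigen of venular endothelium, was at 17.3 ± 5.26 and 13.2 ± 4.78 (difference -0.38, 95% interval -1.05 to 0.29), and its exons overlap those of Cadm3 on the same strand, which had 38.2 to 96.1 counts. The difference of Ackr1 was -0.25 without library C or I. Ackr4 was at 20.9 ± 4.72 and 16.5 ± 3.12 (difference -0.31, 95% interval -0.83 to 0.21), and the difference was -0.20 without C or F. Its exons overlap those of Acad11, which had 3849 to 6709 counts, and whose part in the counts of Ackr4 was not tested.

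Of the 28 members with reads but a mean under 10, 21 had a lower and 7 a higher mean in sgCcnd1, and 0 had groups that did not overlap. Of all 6529 genes with reads but a mean under 10, 57.4% had a lower mean, 0.996% had separated groups with sgCcnd1 lower and 0.429% with it higher. When the minimum was dropped, 7 of them had an unadjusted p under 0.05, all lower: Ccl3, Ccl4, Ccl12, Ccl22, Cxcl5, Xcl1 and Cxcr2. Among those 6529 genes, 5.07% were lower and 1.72% higher by this rule, and among all 19522 genes above 0, 5.34% and 4.03%. Ccl22, a CCR4 ligand of dendritic cells that draws regulatory T cells, was at 7.38, 22.8, 5.63 and 3.88 normalized counts in the controls and at 1.52, 2.69, 2.94, 1.0 and 4.26 in sgCcnd1. Library I lay above the lowest control and the other 4 below it (limma adjusted p = 0.379 without the minimum). Xcl1, the XCR1 ligand of NK and CD8 T cells, was at 2.46, 6.14, 4.69 and 9.71 in the controls and at 2.29, 1.79, 1.96, 1.0 and 2.84 in sgCcnd1. Only library I was above the lowest control (limma adjusted p = 0.403 without the minimum). These values rest on few reads.

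Chemokine genes lie in clusters, and members of a cluster did not all have similar fitted values. On chromosome 11, between 82035577 and 83664683, 4 of 11 Ccl genes were tested and 3 were lower at an unadjusted p under 0.05, whereas Ccl9 was the exception. On chromosome 5, between 90759298 and 92363296, 4 of 8 Cxcl genes were tested and 2 were lower, Cxcl9 and Cxcl10. The clusters of 7 members on chromosome 4 and 3 on chromosome 8 had 1 tested member each, neither of them lower by that rule. Over all genes 5.74% were lower by it.

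Other genes of chemokine signalling were read from lists fixed with earlier results of these data known. Among transducers made mainly in leukocytes, 8 of 19 tested were lower and 0 higher at an unadjusted p under 0.05 (5.74% and 5.22% of all genes), with a median log2 fold change of -0.38, and 0 passed the adjustment in limma. Without Rgs1, which entered the test through the controls only, 7 of 18 were lower (median -0.37), where 5.5% of the genes whose mean reached 10 in both groups were. Rac2, the leukocyte GTPase needed for directed migration, was at 150.0 ± 25.6 and 109 ± 12.7 normalized counts (SD, n = 4 and 5; -0.45, limma adjusted p = 0.307). Rgs1, which turns off G protein signals of chemokine receptors, was at 17.2 ± 5.09 and 7.56 ± 3.69 (-1.15, limma adjusted p = 0.297), and Pik3r5, a subunit of PI3K gamma, at 33.5 ± 8.37 and 18.9 ± 6.43 (-0.83, limma adjusted p = 0.323). The summed counts of this list were 1533 to 1850 in sgRosa26 and 1226 to 1596 in sgCcnd1, highest in library B.

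Transducers made in most cells had a median of -0.056, with 5 of 29 lower and 3 higher at an unadjusted p under 0.05 (5.74% and 5.22% of all genes). Grk3, a kinase that phosphorylates and desensitises receptors, was at 242, 167, 163 and 167 normalized counts in the controls and at 160.1, 118, 81.3, 61.0 and 71.0 in sgCcnd1. All 5 sgCcnd1 libraries were below the lowest control (-0.97, limma adjusted p = 0.253, DESeq2 adjusted p = 0.0499). Rgs2 was at 67.4 ± 17.7 and 45.4 ± 7.53 (-0.54, limma adjusted p = 0.344) and the adaptor Pxn at 960 ± 73.7 and 821 ± 83.8 (-0.23, limma adjusted p = 0.392).

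Of 9 tested genes tied to chemokines outside the symbol pattern, 0 had an unadjusted p under 0.05 (median -0.020). The platelet chemokine Pf4, which also entered through the controls only, was at 13.9 ± 4.76 and 7.91 ± 3.08 normalized counts (-0.78, limma adjusted p = 0.473). Dpp4, a protease that trims chemokines, was at 2155 ± 209 and 2364 ± 241 (0.13, limma adjusted p = 0.636), and Mif at 1211 ± 303 and 1078 ± 311 (-0.19, limma adjusted p = 0.774).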

How the data were processed

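The deposited table gives a never-negative signal per Entrez gene, named normalized counts, with 1 column per mouse. Column names gave the guide target, so each column was matched to its group only, and the letters A to I follow column order. The labels call the samples replicates, and p-values measure the spread between these mice. Per the submitters' processing notes, the build was mm10 (GRCm38) and the tools were Trim Galore 0.6.7, HISAT2 2.2.1, featureCounts 2.0.3, FastQC 0.74, MultiQC and DESeq2 2.11.40.8. The use of strand is not given in the sources used here. In each library 100% of the values above 0 were whole multiples (within 0.01) of 1 number, so read counts were recovered by division. For library H this number was 0.99958, so its low values lie near whole numbers before division as well. Its high values do not (Cxcl12 at 5651.64).

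Of 27179 genes, 12993 with a mean of at least 10 were tested with limma 3.58.1 in R 4.3.3 (lmFit, eBayes with trend, two-sided, no covariates) on log2(normalized count + 1), a scale that understates changes of low genes. P-values were adjusted by Benjamini-Hochberg over all genes tested (threshold 0.05). Other settings were pseudocounts of 0.1 and 10, no minimum or a minimum of 100, quantile and 75th percentile scaling, robust eBayes, each library left out, and edgeR 4.0.16 and DESeq2 1.42.0 on the recovered reads. On simulated counts, limma missed a first criterion on the share of changes recovered, and the procedures then met criteria on effect size, sign and false calls.

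Members and lists were chosen with earlier results of these data known. Named by rule were members with an unadjusted p under 0.05 or separated groups, the 8 ligands and 6 receptors with the highest means, atypical receptors, the highest member of each role, and 3 genes with the smallest p from each of 3 signalling lists. The remaining 8 tested members were added to complete the set, except that 1 gene is counted in the totals and not reported here. Of the low members, those with an unadjusted p under 0.05 without the minimum, the 6 at 0 and those next to the minimum were named after their values were seen, as were other receptors and ligands given beside their partners. Exon lengths and overlaps came from GENCODE M21 and positions and promoters from RefSeq, both GRCm38. Figures were drawn with matplotlib 3.10.9. Reads were counted without molecular identifiers, and limits from depth are for counting error alone.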

Additional observations from a re-analysis of the deposited data

Results flagged for a closer look

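Among 62 groups of values examined, 8 had a library far from the others, where chance gives about 1 in 20 (3.1 groups). In the controls, library B stood above the rest in Cxcl9 (1285 normalized counts, the others 281 to 390), in Cxcl10 (250.7, the others 62.9 to 83.6) and Cxcl11 (72.8, the others 45.6 to 49.2). Library A had fewer reads (12249127, the others 16246902 to 16602988). In sgCcnd1, library E stood above its group in Cxcl9 (467, the others 132 to 220.0) and in Ccl5 (83.1, the others 13 to 26.9). Library G stood above its group in Cxcl1 (766, the others 81.6 to 136), and library H in Cxcl13 (78, the others 9.85 to 20.6).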

How the results depend on the processing

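No paired analysis was possible because no column name holds a replicate number found in the labels. The models without library H and the counts over genes with a mean of at least 10 in both groups were chosen after seeing the data. The count of members lower at an unadjusted p under 0.05, 9 in limma, was 17 with no minimum, 2 with a minimum mean of 100 (fewer genes tested) and 5 to 12 when a library was left out. With DESeq2, 3 members were called lower, and 0 once H was dropped. In limma this count was 0 whichever library was dropped. Members called higher and members higher at an unadjusted p under 0.05 were 0 in every setting run. The ligand median ranged from -0.36 to -0.20 and the receptor median from -0.74 to -0.40 when a library was left out, and both stayed below 0 in every setting that gave a value (a minimum of 100 left no receptor). Genes called lower numbered 1 in limma, 76 with DESeq2 (25 without H), 2 under quantile scaling, 0 with edgeR without H and 0 to 2 when a library was left out. Genes called higher numbered 0 in limma and 41 with DESeq2 (16 without H). The cause was not tested. Ccnd1 ranged from -1.11 to -0.96 when a library was left out and was -1.02 with edgeR without H (adjusted p = 0.0560). Cxcl1, Ccl24, Ccl9, Ackr2, Ccl25 and Cxcl11 turned sign in some settings. Cxcl1 was 0.39 with edgeR TMM, 0.40 with edgeR RLE, 0.39 with DESeq2, 0.56 with either model without H, and -0.66 to 0.15 when a library was left out. Ccl24 was 0.0050 with edgeR TMM, 0.0087 with RLE, 0.0059 with DESeq2, 0.014 with either model without H and -0.36 to 0.059 when a library was left out. Ccl9 ranged from -0.083 to 0.031 and Ackr2 from -0.091 to 0.31 when a library was left out. Ccl25 was -0.022 with edgeR TMM, -0.018 with RLE, -0.020 with DESeq2 and -0.16 to 0.13 when a library was left out. Cxcl11 was 0.038 with edgeR and 0.040 with DESeq2, both without H, and -0.30 to 0.024 when a library was left out. Depth limits the 28 members under the minimum, which had at most 9.26 normalized counts on average.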
